A study of Mus musculus with 14 samples.

Results

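The genes described here are 56 developmental transcription factor genes of the mouse that lie outside the Hox clusters and are classical targets of Polycomb repression. They were taken by name from a list drawn up with earlier results of these data known, though no count enters the rule, and all 56 were among the 24984 gene symbols counted in each of 2 tables. The counts come from bulk RNA sequencing of spermatogonia sorted from testes by the surface receptor c-KIT, in 2 experiments on Cbx2 with 14 libraries, all from the strain C57BL/6J. In the deletion experiment 2 animals of the genotype Rosa26-CreERT2; Cbx2 Flox/Δ that had been given tamoxifen in oil (called deleted here; 3 daily injections, each of 200 µL at 20 mg/mL) were compared with 2 animals of the genotype Rosa26-CreERT2; Cbx2 Flox/+ that had been given corn oil (called oil controls). All 4 animals carried the tamoxifen-inducible recombinase, which the Rosa26 locus drives in most cell types and not in germ cells alone. The Δ allele in place of the wild-type one and tamoxifen in place of oil went together, so their effects cannot be told apart. In the 23KRA experiment 5 animals homozygous for the Cbx2 23KRA allele were compared with 5 Cbx2 +/+ animals, with no treatment. As background, this allele replaces basic residues of the region by which CBX2 compacts nucleosomes. The sources used here give no ages. The deletion libraries were made with an mRNA kit of the SMART-Seq type and the 23KRA libraries with a stranded total RNA kit, so each comparison stayed within its own table. Each library is 1 animal and 1 preparation, and p-values measure the spread between these.

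Polycomb complexes keep genes for other cell fates silent. PRC2 methylates histone H3 around their promoters, and PRC1, to which CBX2 belongs, binds the mark and compacts the chromatin. In the mouse male germ line many promoters of developmental regulators are known to carry this repressive mark together with an activating one while giving little RNA. The 56 genes include regulators of limb, heart, pharynx, forebrain, eye, kidney, endoderm and neural crest. Histone marks were not measured in the tables used here, which hold RNA counts only.

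Polycomb targets in mammals are known for promoters rich in CG dinucleotides. The promoter of 5 members is printed here, chosen after the levels were seen: Tbx1 (both of its starts), Lhx8 and Dlx1 from the members with the most counts, and Nkx2-2 and Neurod1 from those with almost none. Each sequence runs 5′ to 3′ from 250 bases before to 50 bases after the gene's start in RefSeq on GRCm38.p6, so its last 50 bases lie in the first exon by RefSeq. Another annotation, GENCODE, places some starts elsewhere. Its nearest start lay 344 bases away for Dlx1, 115 for Neurod1, 99 for Lhx8 and 91 for Tbx1 start 1. For Nkx2-2 the distance was 2 bases and for Tbx1 start 2 it was 0. Capitals mark CG.
Tbx1 start 1 (chr16:18588850-18589149, minus strand): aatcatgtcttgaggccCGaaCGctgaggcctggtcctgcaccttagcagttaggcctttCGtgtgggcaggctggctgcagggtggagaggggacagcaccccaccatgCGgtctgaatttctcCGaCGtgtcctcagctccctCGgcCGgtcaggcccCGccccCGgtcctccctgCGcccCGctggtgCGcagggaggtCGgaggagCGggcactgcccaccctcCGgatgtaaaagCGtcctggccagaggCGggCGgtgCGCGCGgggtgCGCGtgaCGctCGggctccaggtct
Tbx1 start 2 (chr16:18590622-18590921, minus strand): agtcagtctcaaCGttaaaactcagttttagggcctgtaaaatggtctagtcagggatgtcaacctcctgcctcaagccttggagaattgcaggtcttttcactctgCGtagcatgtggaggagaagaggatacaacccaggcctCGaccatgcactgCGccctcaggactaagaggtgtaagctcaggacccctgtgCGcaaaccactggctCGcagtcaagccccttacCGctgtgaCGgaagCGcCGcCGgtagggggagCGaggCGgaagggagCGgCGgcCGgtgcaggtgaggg
Lhx8 (chr3:154330511-154330810, minus strand): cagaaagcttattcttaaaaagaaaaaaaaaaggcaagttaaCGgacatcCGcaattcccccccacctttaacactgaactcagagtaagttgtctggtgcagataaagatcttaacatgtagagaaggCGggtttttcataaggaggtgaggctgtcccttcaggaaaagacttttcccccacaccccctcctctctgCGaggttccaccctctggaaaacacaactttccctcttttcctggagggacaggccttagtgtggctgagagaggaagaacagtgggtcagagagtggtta
Dlx1 (chr2:71529195-71529494, plus strand): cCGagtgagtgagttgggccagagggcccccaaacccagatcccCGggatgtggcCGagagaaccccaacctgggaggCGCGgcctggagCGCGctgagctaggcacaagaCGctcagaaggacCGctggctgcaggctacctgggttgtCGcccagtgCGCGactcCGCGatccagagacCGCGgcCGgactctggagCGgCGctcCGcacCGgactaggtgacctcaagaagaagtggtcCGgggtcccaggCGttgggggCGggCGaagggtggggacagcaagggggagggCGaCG
Nkx2-2 (chr2:147186353-147186652, minus strand): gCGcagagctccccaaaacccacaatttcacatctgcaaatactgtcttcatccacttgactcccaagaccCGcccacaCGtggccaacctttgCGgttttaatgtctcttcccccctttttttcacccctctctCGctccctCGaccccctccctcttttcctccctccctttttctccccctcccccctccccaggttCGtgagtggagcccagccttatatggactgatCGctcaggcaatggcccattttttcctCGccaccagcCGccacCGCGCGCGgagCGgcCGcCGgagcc
Neurod1 (chr2:79456587-79456886, minus strand): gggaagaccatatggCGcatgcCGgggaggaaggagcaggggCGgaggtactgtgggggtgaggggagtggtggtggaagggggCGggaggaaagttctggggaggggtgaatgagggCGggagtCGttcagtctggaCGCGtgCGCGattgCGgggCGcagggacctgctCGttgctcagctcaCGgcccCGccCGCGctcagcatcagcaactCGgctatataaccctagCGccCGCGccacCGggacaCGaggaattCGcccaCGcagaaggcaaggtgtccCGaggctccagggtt

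The 5 promoters show that a CG-rich start went with a high level in Tbx1 and Dlx1 and with a level near 0 in Nkx2-2 and Neurod1. The start 1 promoter of Tbx1 held 26 CG and its start 2 promoter 16, against 27 in Dlx1, 17 in Nkx2-2 and 26 in Neurod1. Lhx8 stood apart with 4 CG, a GC content of 47.0% and 0.24 of the CG number that its C and G content would give.

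The RefSeq table held 56 promoters for 42 of the members, and 14 members had none there. A promoter was called CG-rich at a GC content of at least 50% and an observed CG number of at least 0.6 of that expected. By this measure 39 of the 56 member promoters (69.6%) were CG-rich, against 45.1% of 21903 promoters of 18225 genes in the tables and 54.4% of 57 promoters of other genes of the same families. The share was alike across levels. It was 72.7% for 11 promoters of the 6 members with at least 5 CPM (counts per 1000000 counted reads) in both experiments, 68.8% for 16 promoters of members under 0.1 CPM in either experiment, and 69.0% for the 29 others. The median number of CG was 17.5 in the member promoters and 13 in all promoters. Unlike the share, it differed by level. It was 26 for the members of at least 5 CPM, 22 for the 29 others and 17 for members under 0.1 CPM. The median GC content was 69.0%, 61.0% and 57.3% in the same order, and none of this was tested. The letters TATAAA, searched on the gene's own strand in the 50 bases before the start, occurred in 1 member promoter, that of Olig2 (1.79%), and in 2.95% of all promoters. These are descriptions of letters in a fixed window.

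**Figure D1:**
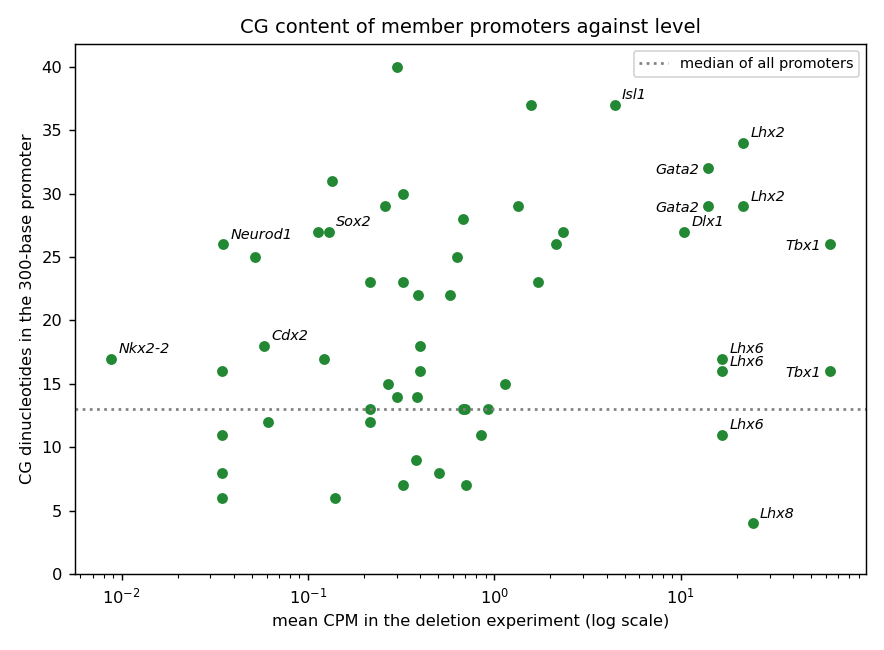
Number of CG dinucleotides in each member's 300-base promoter (vertical axis) against the gene's mean CPM over the 4 deletion-experiment libraries (horizontal axis, log scale); each point is 1 of 56 promoters and the dotted line is the median of all promoters, 13. Promoters with 25 or more CG occur at both ends of the horizontal axis, and Lhx8 lies lowest with 4.

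Most of the 56 genes gave little RNA in these germ cells. In the deletion experiment 20 members (35.7%) had a mean of at least 1 CPM, against 58.3% of all 24984 genes. In the 23KRA experiment it was 17 members (30.4%) against 54.9%. CPM here uses scaled library totals and is not divided by the length of the gene. At that level 14 members stood in both experiments, 6 in the deletion experiment only and 3 in the 23KRA experiment only, while 33 were under it in both. These are bulk libraries, so a low value can come from few cells with the transcript or from little transcript per cell, which cannot be told apart.

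The level classes were alike in the 2 experiments. In the deletion experiment 6 members had at least 10 CPM, 14 had 1 to 10, 29 had 0.1 to 1, and 7 had less than 0.1, with no member at 0 in every library. In the 23KRA experiment 4 members had at least 10 CPM, 13 had 1 to 10, 27 had 0.1 to 1, 8 had less than 0.1, and 4 had no count in any of 10 libraries. Across the 56 members, Spearman's rho between the mean CPM of the experiments was 0.826, as a description of points that share gene length and composition.

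**Figure D2:**
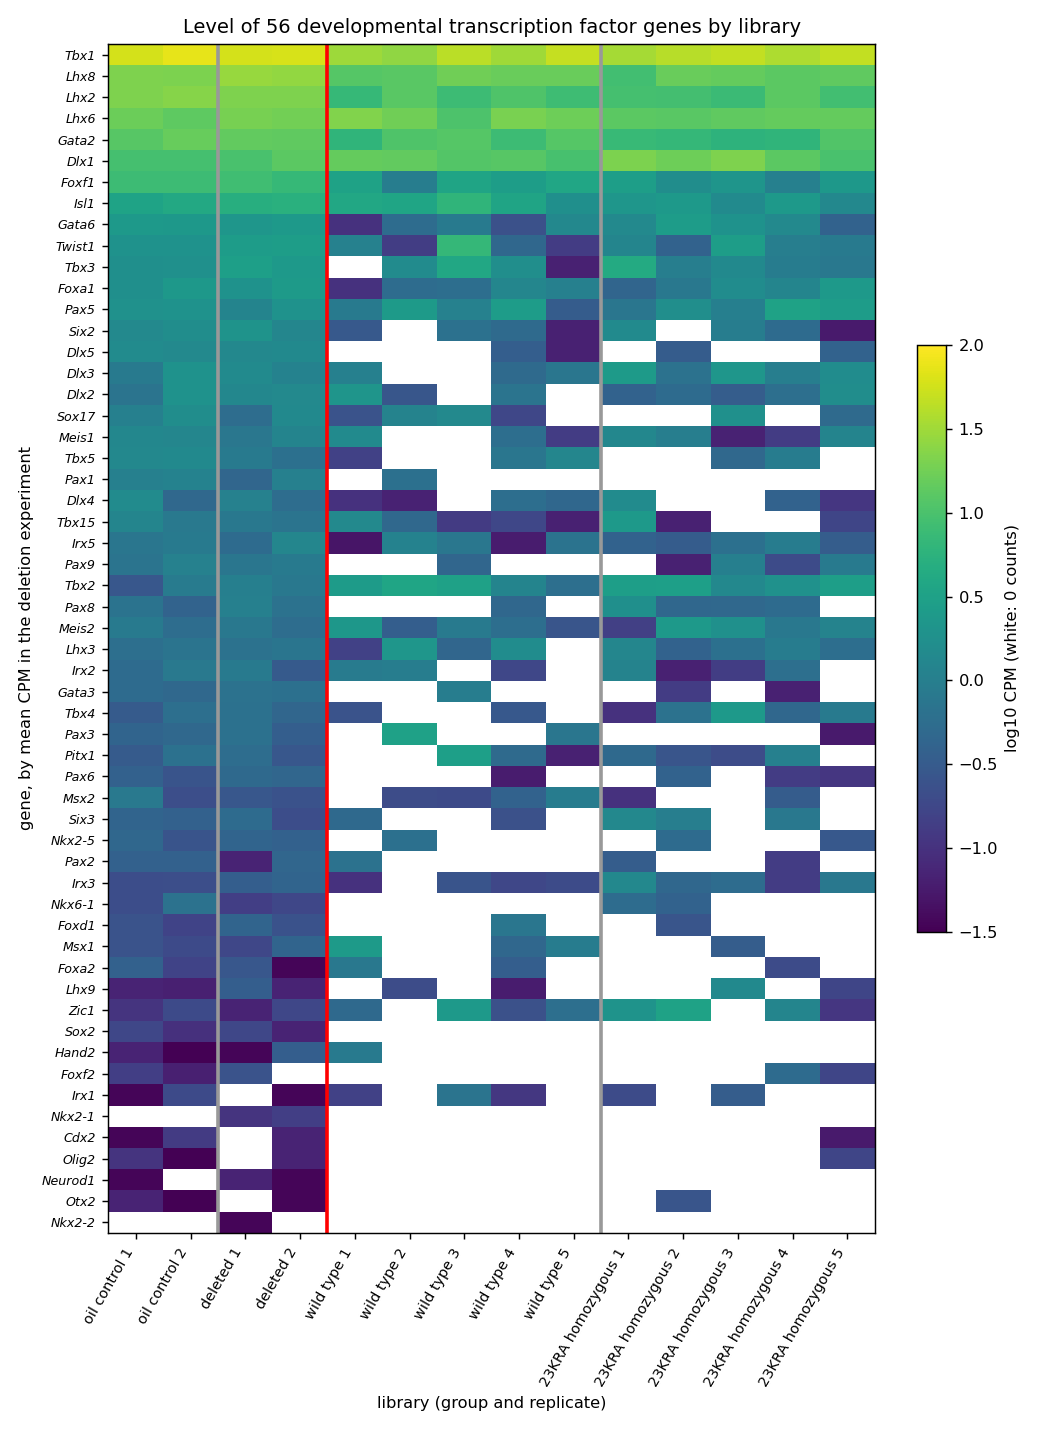
CPM on a log10 colour scale for each of the 56 genes (rows, ordered by mean CPM in the deletion experiment) in each of the 14 libraries (columns); white cells had 0 counts, the red line separates the experiments and grey lines separate the groups. The rows from Tbx1 at the top down to Twist1 are filled in all libraries. The lower rows are filled in most deletion libraries and have many more white cells in the 23KRA libraries.

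6 genes had at least 5 CPM in both experiments. They were Tbx1, a T-box factor of the pharyngeal arches and the heart outflow tract; Lhx8, a LIM homeodomain factor of oocytes and of cholinergic forebrain neurons; Lhx2, of the eye and forebrain; Lhx6 and Dlx1, of forebrain interneurons; and Gata2, of blood stem and progenitor cells. Together they held 76.1% to 77.0% of the summed CPM of the 56 members in the deletion libraries and 71.4% to 87.3% in the 23KRA libraries. The other 50 members had together 43.9 and 47.4 CPM in the oil controls, 46.1 and 47.5 in the deleted libraries, 16.3 to 38.3 in the wild-type and 25.2 to 37.2 in the homozygous libraries.

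Per kilobase of merged exons, Tbx1 had the highest level of the members in both experiments. It had 18.1 CPM per kilobase in the deletion experiment and 11.1 for 23KRA, which was above 83.8% and 81.2% of all genes with a length. Lhx8 followed with 9.61 and 5.55 CPM per kilobase. Lhx2 had 4.94 and 2.16, Lhx6 3.48 and 3.25, Foxf1 3.25 and 1.01, Gata2 2.60 and 1.59, and Dlx1 1.93 and 2.66 CPM per kilobase. Only 9 members in the deletion experiment and 8 for 23KRA were above the median gene, and the median member lay at percentile 34.98 and 33.5.

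At the other end, 6 members were under 0.1 CPM in both experiments: Nkx2-1, of thyroid, lung and forebrain; Nkx2-2 and Neurod1, of the pancreas and nervous system; Otx2, of the anterior brain; Olig2, of motor neurons and oligodendrocytes; and Cdx2, of trophectoderm and intestine. Nkx2-1, Nkx2-2 and Neurod1, and also Sox2, the pluripotency and neural progenitor factor, had no count in any 23KRA library. A count of 0 allows up to 0.148 to 0.208 CPM in a 23KRA library and up to 0.0953 to 0.106 CPM in a deletion library, for counting error alone.

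These genes had a few counts each in the deletion libraries. Sox2 had 5 and 3 counts in oil controls 1 and 2, and 5 and 2 in deleted libraries 1 and 2. Neurod1 had 1 and 0 counts in the oil controls and 2 and 1 in the deleted libraries. Nkx2-1 had 0 in both oil controls and 3 and 4 counts in the deleted libraries. Nkx2-2 had 1 count in all, in deleted library 1. All of these values are at a level where a few reads decide the order of the libraries, and none of the 4 genes had enough counts to be tested.

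Every family but the Nkx genes and the group of Otx2, Pitx1 and Cdx2 held a member of at least 1 CPM in at least 1 experiment. Of 6 LIM homeodomain genes 4 had at least 1 CPM in each experiment (Lhx2, Lhx6, Lhx8 and Isl1, a factor of cardiac progenitors and motor neurons), while the pituitary and motor neuron factor Lhx3 had 0.675 and 0.816 CPM and the gonadal factor Lhx9 had 0.139 and 0.188, the deletion experiment first here and in the family values that follow. Of 6 T-box genes 3 had at least 1 CPM in each experiment. Tbx1 and Tbx3, a factor of limb and mammary gland, were among them in both. Tbx5, a factor of heart and forelimb, had 1.08 and 0.358 CPM, and Tbx2 had 0.749 and 2.32. The hindlimb factor Tbx4 had 0.502 and 0.510 CPM and Tbx15, of skeleton and skin patterning, 0.893 and 0.496.

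The Dlx and Msx genes act in forebrain, branchial arch, limb and skin. Of these 7 genes, 4 had at least 1 CPM in the deletion experiment and 2 for 23KRA. Dlx1 had 10.4 and 14.4 CPM, Dlx2 1.34 and 0.661, Dlx3 1.36 and 1.03, Dlx4 0.912 and 0.325, and Dlx5 1.44 and 0.114. Msx1 had 0.258 and 0.431 CPM and Msx2 0.391 and 0.217.

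Among 3 GATA genes, Gata2 had 14.01 and 8.60 CPM, Gata6, a factor of endoderm and heart, 2.36 and 1.09, and Gata3, of T cells and trophoblast, 0.576 and 0.116. Of 5 forkhead genes, Foxf1, a factor of lung and visceral mesoderm, had 7.85 and 2.43 CPM and Foxa1, which opens chromatin in endoderm, 2.14 and 1.01. Foxa2, of endoderm and floor plate, had 0.216 and 0.135 CPM, Foxd1, of kidney stroma, 0.268 and 0.101, and Foxf2, of palate and gut mesenchyme, 0.113 and 0.0701.

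The Pax genes act in eye, kidney, muscle, thyroid and axial skeleton, and 1 of 7 reached 1 CPM. That gene was Pax5, the B cell factor, with 1.72 and 1.71 CPM. The other Pax genes had 0.324 (Pax2) to 0.919 CPM (Pax1) in the deletion and 0.0624 (Pax1) to 0.398 CPM (Pax3) in the 23KRA experiment, with Pax6, Pax8 and Pax9 between these values. None of 4 Nkx genes reached 1 CPM. Nkx2-5, of the heart, had 0.380 and 0.144 CPM and Nkx6-1, of beta cells and motor neurons, had 0.299 and 0.0937.

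In the remaining families no member exceeded 2.33 CPM in either experiment, the level of Twist1 in the deletion. Six2, of kidney progenitors, had 1.58 and 0.456 CPM and Six3, of the eye and forebrain, 0.386 and 0.389. The homeobox genes Irx1, Irx2, Irx3 and Irx5 had 0.0652 to 0.855 CPM in the deletion experiment and 0.152 to 0.527 for 23KRA. Meis1, a cofactor of Hox proteins, had 1.14 and 0.594 CPM and Meis2 0.697 and 1.07. Sox17, of endoderm and endothelium, had 1.18 and 0.533 CPM, and Twist1, of mesoderm and neural crest, 2.33 and 1.48. Pitx1, of the hindlimb and pituitary, had 0.449 and 0.557 CPM, Hand2, of heart and limb, 0.122 and 0.0856, and the cerebellar and skeletal factor Zic1 0.135 and 1.05.

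Some members stood at different levels in the 2 experiments. For example, Tbx2 and Zic1 were at higher CPM in the 23KRA experiment, and Dlx5, Gata3, Pax1 and Pax6 (0.397 and 0.0700) at higher CPM in the deletion experiment. These examples were picked after their values were seen and are not all that differed, and the experiments differ in kit, animals and depth, so no test was made.

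**Figure D3:**
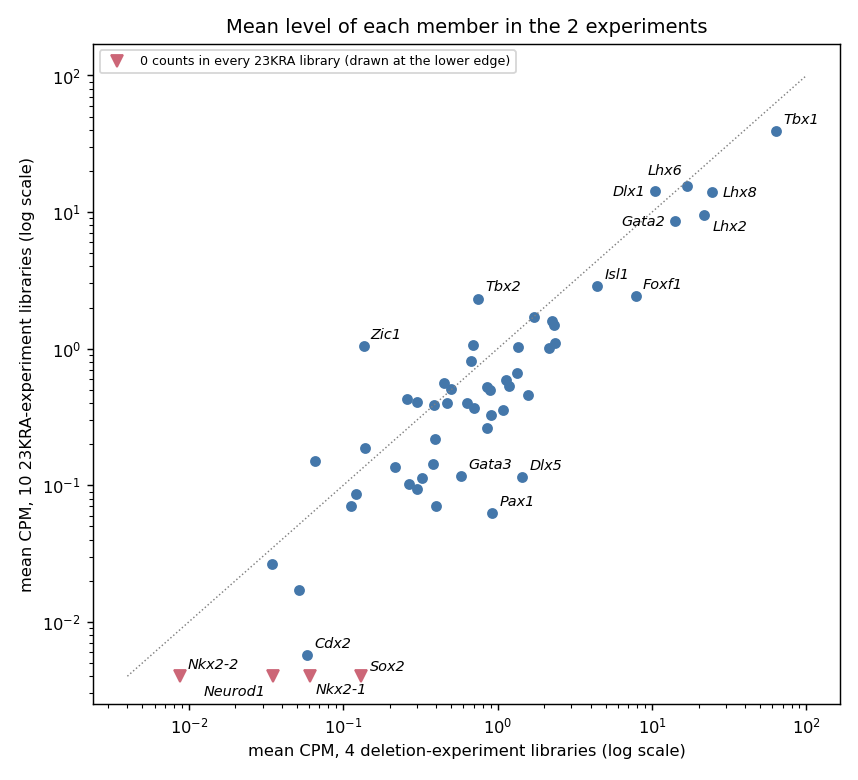
Mean CPM of each of the 56 genes in the 10 23KRA-experiment libraries (vertical axis, log scale) against the 4 deletion-experiment libraries (horizontal axis, log scale); the dotted line marks equal values and triangles mark the 4 genes with 0 counts in every 23KRA library. The 6 genes with at least 5 CPM in both experiments stand together at the upper right, and Zic1 and Tbx2 lie farthest above the line.

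Neighbouring members could stand at different levels. There were 12 pairs of members less than 1 Mb apart, among them Dlx1 and Dlx2, which lie 9.43 kb apart on opposite strands. Per kilobase of exons, Dlx1 had 1.93 and 2.66 CPM in the deletion and 23KRA experiments and Dlx2 0.468 and 0.232. Tbx3 and Tbx5 lie 148 kb apart, and on the same scale Tbx3 had 0.339 and 0.239 and Tbx5 0.231 and 0.0767. Pax1 and Nkx2-2 lie 168 kb apart, and Pax1 had 0.205 CPM per kilobase in the deletion experiment, where Nkx2-2 had 0.00306. In the 23KRA experiment Pax1 had 0.0139, from 9 counts in 1 library, and Nkx2-2 had 0. These pairs are examples, and others were closer, such as Irx3 and Irx5 in 23KRA (0.147 and 0.169 CPM per kilobase). The exons of Dlx1 overlap those of the antisense gene Dlx1as over 335 bases (6.21% of the exonic length of Dlx1), and the exons of 12 members in all overlap a gene that was also counted. Whether the counting used the strand is not given in the sources used here, so such genes may share reads.

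The low members were read evenly in the deletion libraries and in clumps in the 23KRA libraries. Of the 56 members, 48 had counts in every deletion library and 15 in every 23KRA library. No member had 0 counts in 1 deletion library and at least 10 in another, while 29 members did so among the 23KRA libraries (85 and 5160 of all genes). For members with a mean of 5 to 20 counts, the median ratio of variance to mean within groups was 1.73 in the deletion (16 members) and 12.7 in the 23KRA experiment (22 members), against 1.55 and 13.7 for all genes in that range. A value for a low member in a 23KRA library is therefore much less precise than its count alone would give.

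The library facts behind these values are as follows. The deletion libraries held 28169990 to 31166500 counts with 19822 to 19976 genes detected, and the 23KRA libraries 14562564 to 19814511 counts with 14958 to 17330 genes, the fewest in wild type 2 and 3. Cbx2 itself had 93.9 and 97.7 CPM in the oil controls and 78.5 and 86.5 in the deleted libraries (log2 fold change -0.21, SE 0.12, adjusted p = 0.971), and counts over the whole gene do not show whether a deleted exon was lost. Kit had means of 231 and 242 CPM in oil control and deleted and of 254 and 258 CPM in wild type and homozygous libraries.

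Genes that mark other cells of the testis were read in all libraries, some above the members in summed CPM, and their part in the members' values was not tested. In the deletion experiment 12 Sertoli cell genes summed to 307 to 324 CPM in oil controls and 320 to 350 in deleted libraries, most of it from Clu and Ctsl, and 9 macrophage and leukocyte genes to 51.3 to 61.0 and 47.9 to 94.8. The 9 Leydig cell genes summed to 24.9 to 27.7 and 19.2 to 20.3 CPM. Of these, 7 had a fold change below 0 and 2 above, 3 at an unadjusted p under 0.05 by edgeR's quasi-likelihood test. Only Cyp17a1, lower, passed an adjusted p of 0.05. The 11 myoid and interstitial genes summed to 92.2 to 96.8 and 102 CPM. Of 10 tested, 6 were above 0 and 4 below, 3 at an unadjusted p under 0.05, and only Dcn, higher, passed. The 8 endothelial genes summed to 38.8 to 40.1 and 38.5 to 44.4 CPM, and 8 genes of rete testis and ducts to 8.07 to 8.89 and 7.10 to 7.92, with Lcn8, Lcn9 and Rnase9 at 0. Few genes gave most of these sums. Their oil-control means were 52.3 and 15.8 CPM for Actg2 and Mylk (myoid) and 30.1 for Egfl7 (endothelial). They were 7.92 for Cftr (duct) and 17.0 and 28.5 for Cd74 and H2-Ab1 (leukocyte). At least 1 CPM was reached by 3 of 8 endothelial, 7 of 11 myoid and interstitial and 1 of 8 duct genes. In the 23KRA experiment the ranges of the wild-type and homozygous libraries overlapped for all of these lists. The Sertoli cell genes summed there to 122 to 155 and 119 to 166 CPM with Fshr at 0, the Leydig cell genes to 15.1 to 23.3 and 12.4 to 19.9, and the myoid and interstitial genes to 87.4 to 132 and 91.9 to 119 with Tcf21 at 0. The endothelial genes summed to 17.7 to 24.7 and 12.6 to 22.2 CPM with Emcn at 0, the macrophage and leukocyte genes to 9.12 to 144 and 17.4 to 37.6, and the rete testis and duct genes to 10.2 to 27.7 and 13.1 to 22.9 with 5 of 8 at 0. Of the germ cell lists, no gene passed in either experiment. In the deletion the sums of the spermatid, meiotic prophase and differentiating lists did not overlap between groups. Nor did those of the Leydig, myoid and duct lists. With 2 libraries a group, 33.1% of all genes tested in the deletion did not overlap either. All 8 spermatid genes had a fold change below 0 there, 3 of them at an unadjusted p under 0.05, and they summed to 3166 to 3462 CPM in oil controls and 2729 to 3151 in deleted libraries. Of 10 genes of meiotic prophase 8 were above 0, and they summed to 4483 to 4720 and 4766 to 5154 CPM. The 14 undifferentiated genes summed to 987 to 1043 and 1027 to 1067 CPM. In 23KRA the spermatid genes were also all below 0 but summed to 300 to 1129 CPM in wild type and 248 to 1141 in homozygous libraries, the meiotic genes to 4070 to 4470 and 3721 to 5072 and the undifferentiated genes to 626 to 711 and 620 to 734. All 10 genes of the differentiating list had at least 10 CPM in both experiments, and they summed to 2297 to 2360 and 2365 to 2507 CPM in oil controls and deleted libraries and to 2241 to 2424 and 2129 to 2454 CPM in wild-type and homozygous libraries.

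The deletion comparison asks whether the RNA of these Polycomb targets differs between Flox/Δ animals given tamoxifen and Flox/+ animals given oil. None of the 38 members with enough counts to test passed an adjusted p of 0.05 in edgeR's quasi-likelihood test (Benjamini-Hochberg over all genes), where 0.012% of 16725 genes did (Dcn rose and Cyp17a1 fell, 0.00598% in each direction). At an unadjusted p under 0.05 there were 2 of 38 members (5.26%), Lhx8 and Tbx5, against 4.74% of all genes. DESeq2 also called none, with 1 member under an unadjusted 0.05, and limma-voom called none, with 2. The 4 libraries did not overlap between groups in 12 of 38 members (31.6%), 8 of them higher and 4 lower in the deleted libraries, against 33.1% of all genes (15.6% higher and 17.5% lower), so the members' share lay near that background.

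Lhx8 had the smallest p of the members. It had 21.2 and 20.5 CPM in oil controls 1 and 2, and 28.4 and 27.2 CPM in deleted libraries 1 and 2. Both deleted libraries were above both oil controls. The log2 fold change was 0.41 (SE 0.14, 95% interval 0.13 to 0.70) with an unadjusted p of 0.00649 and an adjusted p of 0.971 by the quasi-likelihood test, so the gene did not pass.

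Tbx5 was the other member with an unadjusted p under 0.05. It had 1.35 and 1.46 CPM in the oil controls and 0.879 and 0.628 CPM in the deleted libraries, from 18 to 46 counts a library. Both deleted libraries were below both oil controls. The log2 fold change was -0.90 (SE 0.41, 95% interval -1.73 to -0.06), with an unadjusted p of 0.0362 and an adjusted p of 0.971 by the same test, and it did not pass.

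The most abundant member differed little. Tbx1 had 59.0 and 75.0 CPM in the oil controls and 59.4 and 61.0 CPM in the deleted libraries. Oil control 2 was the highest and the groups overlapped. Its log2 fold change was -0.15 (SE 0.13, 95% interval -0.42 to 0.11).

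Lhx2, Gata2 and Foxf1 had the same kind of overlap. Lhx2 had 21.3 and 22.9 CPM in the oil controls and 21.3 CPM in both deleted libraries (log2 fold change -0.05, SE 0.14, 95% interval -0.35 to 0.24). Gata2 had 12.5 and 15.3 against 14.3 and 13.9 CPM (0.02, SE 0.16, -0.30 to 0.35, in the same order of quantities). Foxf1 had 7.97 and 8.04 against 8.47 and 6.94 CPM (-0.06, SE 0.18, -0.43 to 0.32). For these 3 genes the interval of the log2 fold change left room for less than 0.5 in either direction.

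Lhx6, Dlx1 and Isl1 were higher in both deleted libraries than in both oil controls, without passing. Lhx6 had 16.2 and 13.8 against 19.0 and 17.96 CPM (log2 fold change 0.30, SE 0.15, 95% interval -0.01 to 0.62). Dlx1 had 9.18 and 9.41 against 9.98 and 13.0 CPM (log2 fold change 0.31, SE 0.17, 95% interval -0.05 to 0.67). Isl1 had 3.44 and 4.10 against 4.92 and 5.23 CPM (log2 fold change 0.43, SE 0.22, 95% interval -0.02 to 0.88). The adjusted p was 0.971 for each of the 3.

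**Figure D4:**
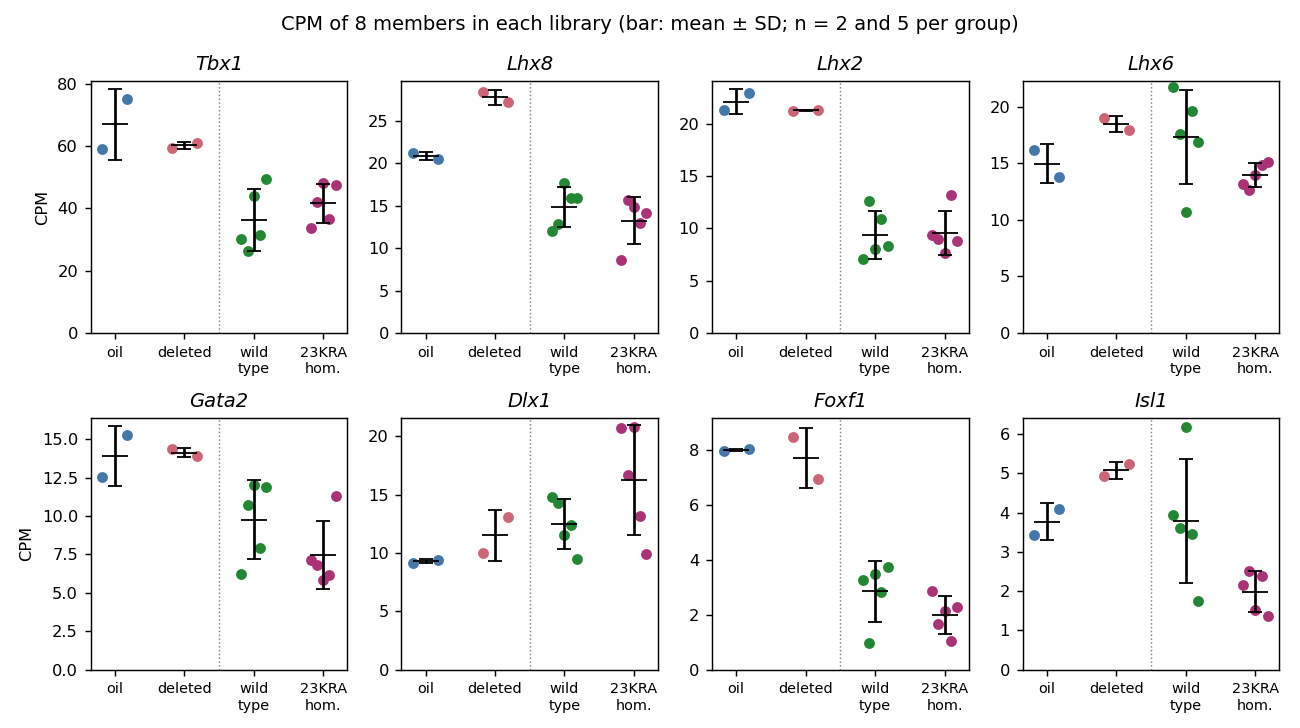
CPM of 8 members in each library (points), by group, with the mean and the SD as bars (n = 2 oil control, 2 deleted, 5 wild type and 5 homozygous); the dotted line separates the experiments, which were made with different kits. The deleted points of Lhx8, Lhx6, Dlx1 and Isl1 lie above both oil-control points, and the 23KRA groups overlap in all 8 genes.

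Among the members of 1 to 3 CPM, Twist1 and Tbx3 had the same order of libraries. Twist1 had 1.91 CPM in both oil controls and 2.71 and 2.79 in the deleted libraries (log2 fold change 0.52, SE 0.28). Tbx3 had 1.77 and 1.81 against 3.02 and 2.37 CPM (log2 fold change 0.59, SE 0.29, 95% interval -0.00 to 1.18). Neither passed, each with an adjusted p of 0.971. Gata6 had 2.44 and 2.29 against 2.21 and 2.51 CPM (log2 fold change -0.00, SE 0.28), Foxa1 1.74 and 2.35 against 1.90 and 2.58 CPM (0.13, SE 0.30), and Dlx3, a factor of placenta and epidermis, 0.886 and 1.94 against 1.51 and 1.12 CPM (-0.12, SE 0.39), with overlap in all 3.

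The widest intervals were those of members under 1 CPM. Pax8, a factor of thyroid and kidney, had 0.673 and 0.413 against 1.05 and 0.663 CPM and the highest fitted log2 fold change of the tested members (0.67, SE 0.50, 95% interval -0.35 to 1.69). Tbx2 had 0.283 and 0.890 against 1.02 and 0.802 CPM (0.61, SE 0.51). Pax1, of the vertebral column, had 1.06 and 1.11 against 0.457 and 1.05 CPM (-0.53, SE 0.46), both deleted libraries below both oil controls. Pax2, of the kidney, had 0.390 and 0.381 against 0.0703 and 0.453 CPM (-0.55, SE 0.71), the lowest value resting on 2 counts in deleted library 1. None of the 4 passed. With 1 library left out the fitted value ran from 0.30 to 1.06 for Pax8, from 0.044 to 1.67 for Tbx2, from -1.25 to -0.053 for Pax1 and from -2.39 to 0.24 for Pax2.

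Over the 38 tested members the log2 fold changes were balanced, 19 above and 19 below 0. Their median was 0.0051 (SD 0.36), against -0.0044 (SD 0.29) over all 16725 genes, and it was 0.19 without oil control 2 and 0.085 without deleted library 2. The tested members are those with enough counts and not the whole list. Over all 56, the mean CPM was higher in the deleted libraries for 28 and lower for 28. Of all genes with a count in this experiment, 49.1% had the higher mean there. The summed CPM of the 56 members was 183 and 204 in the oil controls and 200 in both deleted libraries, and the groups overlapped.

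The 23KRA comparison asks whether the members' RNA differs between animals homozygous for the 23KRA allele and wild-type animals. Of 16 members tested, none passed an adjusted p of 0.05 in edgeR's quasi-likelihood test, and none of 14208 genes did (0%). At an unadjusted p under 0.05 there were 0 of 16 members, against 3.04% of all genes, and by DESeq2 and limma-voom there were also 0. The groups overlapped in each of the 16 members, while 0.711% of all genes had no overlap (0.436% higher and 0.274% lower in the homozygous libraries).

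Tbx1 had 26.3 to 49.4 CPM in the wild-type libraries and 33.8 to 48.1 in the homozygous libraries. In replicate order 1 to 5 the wild-type values were 30.3, 26.3, 43.9, 31.5 and 49.4 CPM, and the homozygous values were 33.8, 42.1, 48.1, 36.6 and 47.5 CPM. Wild type 2 was the lowest and wild type 5 the highest of the 10. The log2 fold change was 0.20 (SE 0.18, 95% interval -0.17 to 0.56, adjusted p = 1.00).

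The 3 LIM homeodomain genes of this level also overlapped between groups. Lhx6 had 21.7, 17.6, 10.7, 19.6 and 16.9 CPM in wild type and 13.2, 12.6, 13.9, 14.9 and 15.1 CPM in homozygous libraries, with 4 of the wild-type values above all homozygous ones and wild type 3 below them (log2 fold change -0.31, SE 0.22, 95% interval -0.77 to 0.15). Lhx8 had 12.0, 12.9, 17.6, 15.9 and 15.9 CPM against 8.66, 15.6, 14.9, 13.0 and 14.1 CPM, lowest in homozygous 1 (log2 fold change -0.17, SE 0.23, 95% interval -0.65 to 0.31). Lhx2 had 7.10, 12.6, 8.04, 10.9 and 8.31 CPM against 9.39, 8.97, 7.65, 13.2 and 8.77 CPM (log2 fold change 0.03, SE 0.28, 95% interval -0.54 to 0.60). Each had an adjusted p of 1.00.

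Dlx1 and Gata2 had opposite signs, and neither passed. Dlx1 had 14.8, 14.3, 11.5, 12.4 and 9.45 CPM in wild type and 20.7, 16.7, 20.7, 13.2 and 9.92 CPM in homozygous libraries, 3 of which were above all wild-type values (log2 fold change 0.38, SE 0.25, 95% interval -0.13 to 0.89). Gata2 had 6.25, 10.7, 12.0, 7.92 and 11.9 CPM against 7.13, 6.79, 5.86, 6.15 and 11.3 CPM, the last of these apart from the other homozygous libraries (log2 fold change -0.39, SE 0.30, 95% interval -1.02 to 0.24).

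Isl1 had the smallest p of the members in this experiment. It had 3.93, 3.60, 6.18, 3.47 and 1.74 CPM in wild type and 2.16, 2.51, 1.52, 2.38 and 1.38 CPM in homozygous libraries. All wild-type values but that of library 5 were above all homozygous ones. The log2 fold change was -0.93 (SE 0.55, 95% interval -2.08 to 0.22) with an unadjusted p of 0.109 and an adjusted p of 1.00 by the quasi-likelihood test. In the deletion experiment Isl1 had been higher in the deleted libraries, and the difference between the experiments was not tested.

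The members of 2 to 3 CPM had wider intervals. Foxf1 had 3.27, 0.970, 3.47, 2.83 and 3.75 CPM in wild type and 2.85, 1.65, 2.14, 1.06 and 2.29 CPM in homozygous libraries (log2 fold change -0.52, SE 0.62). Tbx2 had 2.62, 3.60, 3.22, 1.21 and 0.603 CPM against 2.85, 2.97, 1.38, 1.85 and 2.92 CPM (log2 fold change 0.09, SE 0.66). The lowest value of each gene was in a wild-type library, number 2 for Foxf1 and number 5 for Tbx2.

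Tbx3 and Twist1 each rested on few libraries. Tbx3 had 0, 1.53, 3.99, 1.68 and 0.0670 CPM in wild type and 4.43, 0.989, 1.45, 0.926 and 0.802 CPM in homozygous libraries (log2 fold change 0.25, SE 1.02). Twist1 had 1.11, 0.139, 6.69, 0.462 and 0.134 CPM against 1.23, 0.396, 2.83, 0.992 and 0.860 CPM (log2 fold change -0.44, SE 1.00). Without wild type 3 the fitted value of Twist1 was 1.42, so 1 library set its sign. That of Tbx3 was -0.48 without homozygous 1, -0.073 without wild type 1 and -0.056 without wild type 5, so its sign turned with any of 3 libraries left out.

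Dlx3, Gata6 and Foxa1 had the 3 highest fitted fold changes in this experiment. Dlx3 had 1.06, 0, 0, 0.520 and 0.737 CPM in wild type and 2.56, 0.659, 2.21, 0.992 and 1.60 CPM in homozygous libraries (log2 fold change 1.76, SE 1.08, 95% interval -0.48 to 4.01, unadjusted p = 0.117 by the quasi-likelihood test). Gata6 had 0.101, 0.555, 0.836, 0.231 and 1.34 CPM against 1.43, 2.70, 1.93, 1.39 and 0.401 CPM (log2 fold change 1.35, SE 0.94, 95% interval -0.60 to 3.31). Foxa1 had 0.101, 0.555, 0.579, 1.27 and 1.07 CPM against 0.443, 0.791, 1.58, 1.26 and 2.41 CPM (log2 fold change 0.85, SE 0.94). All 3 overlapped between groups, from 0 to 52 counts a library, and each had an adjusted p of 1.00.

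**Figure D5:**
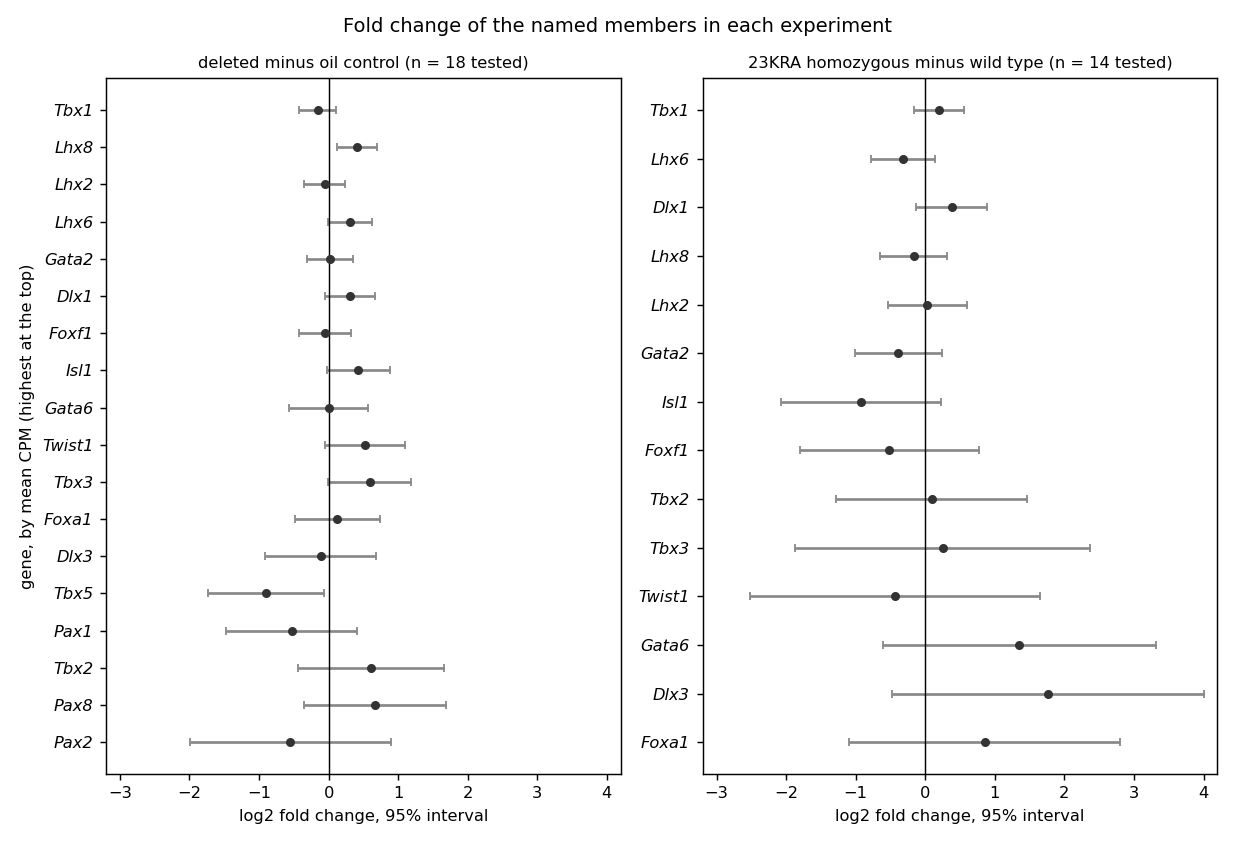
Fitted log2 fold change (points) with its 95% interval (lines) for the named members that were tested, deleted against oil control on the left (18 genes) and 23KRA homozygous against wild type on the right (14 genes), ordered by mean CPM from the top. All intervals but those of Lhx8 and Tbx5 on the left cross 0, and no gene passed the adjusted threshold; the intervals widen toward the bottom and are wider on the right.

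Some named members had too few counts to test in the 23KRA experiment. Pax8 was read in 1 of 5 wild-type libraries, at 0.462 CPM, and in 4 of 5 homozygous libraries at 1.77, 0.462, 0.482 and 0.529 CPM. Tbx5 was read in 3 wild-type libraries at 0.151, 0.751 and 1.27 CPM and in 2 homozygous libraries at 0.482 and 0.926 CPM. Pax2 was read in wild type 1 at 0.655 CPM and in homozygous 1 and 4 at 0.344 and 0.132 CPM. Pax1 was read only in wild type 2, with 9 counts or 0.624 CPM. In libraries where a count of 10 in a member can stand beside a 0, these patterns show no direction.

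Of the 16 tested members, 10 were above and 6 below 0, with a median log2 fold change of 0.14 (SD 0.70), against 0.0034 (SD 0.41) over all 14208 genes. The median was -0.054 without wild type 1, -0.0085 without wild type 5, 0.30 without wild type 2 and 0.38 without wild type 2 and 3, the libraries with the fewest genes detected. Over all 56 members the mean CPM was higher in the homozygous libraries for 30 and lower for 22, and 4 had no count. Of all genes with a count in this experiment, 51.7% had the higher mean there. The summed CPM of the 56 members was 119 to 142 in wild type (mean 127 ± 9.19, SD, n = 5) and 123 to 141 in homozygous libraries (131 ± 6.48, SD, n = 5), so the groups overlapped.

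The 16 members tested in the 23KRA experiment were all tested in the deletion as well, and 5 of them had the same sign in both, with no test of the difference. Tbx1 was at -0.15 after the deletion and 0.20 with 23KRA, Lhx8 at 0.41 and -0.17, and Lhx6 at 0.30 and -0.31, each on the log2 scale. Dlx1 was at 0.31 and 0.38. The median standard error over all genes was 0.15 in the deletion experiment and 0.22 for 23KRA.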

How the data were processed

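RNA of c-KIT-positive spermatogonia was measured in 14 libraries. The authors deposited raw read counts per gene, 2 tables of 24984 symbols, not normalized. Per the submitters' processing notes, the tools were STAR 2.5.3, Trim Galore 0.4.3, Subread 1.5.0, featureCounts and SAMtools 1.4.1, with mm10. The sources used here do not give the annotation, the strand setting or the treatment of reads with several positions. Per the labels' protocols, deletion libraries had 7 cycles of cDNA and 11 of library amplification, and 23KRA libraries 5 and 16 cycles with depletion of ribosomal cDNA, although their molecule field names polyA RNA.

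Each table was fitted apart in R 4.3.3 with edgeR 4.0.16 (filterByExpr, TMM, two-sided quasi-likelihood F test, Benjamini-Hochberg adjustment over all genes, threshold 0.05). The filter left 16725 and 14208 genes, of which 38 and 16 were members. The fit was checked on simulated counts. Changes were planted there only in genes of at least 10 CPM, so the check does not cover members below that level. CPM uses scaled library sizes; SE is the fold change divided by the square root of F. Lengths and positions are from GENCODE on GRCm38 (24474 symbols matched), promoters from RefSeq. Named members had a mean of at least 2 CPM in either table, an unadjusted p under 0.05, or were among the 3 highest or 3 lowest fold changes of a comparison. Alternatives were DESeq2 1.42.0 size factors and test, limma 3.58.1 voom, no filter, other level thresholds, a replicate block and leaving out each library; leaving out wild type 2 and 3 together was added after the data were seen. Members and lists were chosen with earlier results of these data known. The intervals of fold changes come from the fit between libraries. The limits for a count of 0 cover counting error only, since amplified reads are not independent molecules.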

Additional observations from a re-analysis of the deposited data

Results flagged for a closer look

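In the 23KRA experiment, 6 of 36 groups of 5 libraries had 1 library whose gap to the nearest other exceeded Dixon's critical value of 0.71 of the range. That value gives about 1 in 20 for normally distributed values. The counts here are clumped and often 0, so the 6 flags cannot be set against that share. Gata2 had 11.3 CPM in homozygous 5, against 7.13 in the next library, and Tbx3 had 4.43 CPM in homozygous 1, against 1.45. Twist1 had 6.69 CPM in wild type 3, against 1.11. The other 3 were genes read in 1 library of their group and at 0 in the rest: Pax8 at 0.462 CPM in wild type 4, Pax2 at 0.655 CPM in wild type 1 and Pax1 at 0.624 CPM in wild type 2. In such a group the gap equals the range whatever the count.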

How the results depend on the processing

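No member passed under any alternative run, and the smallest adjusted p of a named member was 0.0893 after the deletion and 0.795 with 23KRA, both with a replicate block. With the block, 6 of 38 members and 1755 of 16725 genes had an unadjusted p under 0.05 in the deletion. With no filter, 4 of 52 members and 1230 of 19891 genes in 23KRA had an unadjusted p under 0.05 in the quasi-likelihood test. In the deletion it was 3 of 56 members and 995 of 21404 genes. The smallest adjusted p of any member in 23KRA with no filter was 0.785. Genes called in the deletion numbered 2 as reported, 8 with no filter, 1 with DESeq2, 1 with limma-voom, 62 with the replicate block and 2 to 73 with a library left out, most without deleted 2 (and 11 without oil control 1); in 23KRA they numbered 2 with the block and 0 as reported. Replicate numbers shared deviations weakly (r = 0.15 in the deletion; 0.012, 0.16, -0.0081, 0.11 and 0.21 in 23KRA); 3 of the 5 pairs in 23KRA were over 0.1 and correlated best with their own number, and the other 2 did not, which is a hint from the data. The labels do not say what a number marks, so the pairing was not taken as given. The median of the tested members ranged from 0.0012 to 0.19 in the deletion and from -0.054 to 0.30 in 23KRA with a library left out, and in 23KRA it was 0.29 with limma-voom, 0.30 with the block and 0.38 without wild type 2 and 3. Members counted as read were 32 at 0.5 CPM and 12 at 2 CPM in the deletion and 9 at 2 CPM in 23KRA, and with a library left out 19 to 21 and 13 to 17 at 1 CPM. Of 162 deletion and 224 23KRA fold changes of named members under alternatives, 149 and 211 kept their direction. Gata6 turned to 0.0059 with DESeq2 size factors and 0.0054 with DESeq2, and Twist1 in 23KRA to 0.67 with limma-voom, 0.71 with the block and 1.13 without wild type 2 and 3. With a library left out, the ranges that crossed 0 in the deletion were Gata2 -0.10 to 0.18, Gata6 -0.096 to 0.090, Foxa1 -0.11 to 0.37, Tbx1 -0.31 to 0.029, Lhx2 -0.097 to 0.00062, Dlx3 -0.55 to 0.57, Pax2 -2.39 to 0.24 and Foxf1 -0.20 to 0.080, and in 23KRA Twist1 -0.97 to 1.42, Tbx3 -0.48 to 1.07, Lhx2 -0.11 to 0.16 and Tbx2 -0.15 to 0.32. The cause of these changes was not tested. A lone library in a left-out fit is assumed to vary like the others, and 2 animals a group and clumped 23KRA counts limit what could be called.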

Other observations

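The 81 other genes of the same transcription factor families, chosen by family and not by how they moved, were read about as often as the 56 members. Of them 30 had at least 1 CPM in the deletion libraries and 22 in those of 23KRA. The highest in CPM were Mga, a MAX partner with a T-box that represses germ cell genes outside the germ line, at 214 and 784 CPM, and the homeodomain cofactors Pbx3 at 95.03 and 64.9, Pbx2 at 59.5 and 47.1 and Pknox1 at 53.2 and 29.8 CPM. Sox3, an X-linked factor needed in mouse spermatogonia, had 45.7 and 23.1 CPM, while its relative Sox2 was near 0.

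None of the 51 and 23 family genes tested passed. In the deletion 18 were above and 33 below 0 with a median log2 fold change of -0.10, against -0.0044 over all genes. In the 23KRA experiment 9 were above and 14 below 0 with a median of -0.13, against 0.0034. Six5, Nkx2-6 and Tbx21 had an unadjusted p under 0.05 in the deletion, at log2 fold changes of -0.34, -0.42 and -0.85 and an adjusted p of 0.971 each in edgeR's quasi-likelihood test, and none did in the 23KRA experiment.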
